A study of Homo sapiens with 12 samples.

Results

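The genes described here are 9 surface markers of mesenchymal stromal cells, THY1, ENG, NT5E, PDGFRA, PDGFRB, CD34, DPP4, PDPN and ANPEP. They were chosen by name with earlier results of these data known, and all 9 were found among the 28901 gene names of the deposited table. RNA-seq was performed on day 14 adipocytes made from ASC52telo hTERT, a line of adipose-derived mesenchymal stem cells immortalized with telomerase. Every group had received a lentiviral vector with the ZsGreen marker, had been sorted for ZsGreen and had been differentiated with insulin, dexamethasone, isobutylmethylxanthine and rosiglitazone. The 4 groups, each of 3 libraries, carried scramble shRNA (scramble control) or linc-ADAIN shRNA (linc-ADAIN KD), and were left without LPS or given LPS at 100 ng/mL for 4 h before RNA was extracted. The study describes the sequencing as 1 experiment in triplicate, so a spread or p-value here measures the variation within that experiment in 1 cell line. The targeted linc-ADAIN transcript was not analysed here.

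Mesenchymal stromal cells are recognised by surface proteins rather than by a single defining gene. THY1 (CD90), ENG (CD105) and NT5E (CD73) are the antigens used to define such cells in culture. PDGFRA and PDGFRB mark fibroblast and perivascular lineages in adipose tissue, and CD34, DPP4 and PDPN have been used to separate stromal progenitor populations. ANPEP (CD13) is a peptidase common to stromal cells and to other cell types.

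After linc-ADAIN KD these markers did not move together. Without LPS, PDPN was 20.3-fold and DPP4 4.21-fold higher in KD than in scramble control, whereas THY1 was 5.15-fold, ENG 2.56-fold, ANPEP 2.18-fold and PDGFRB 1.86-fold lower. PDGFRA was 1.20-fold higher, and neither NT5E nor CD34 passed the test. The test throughout is edgeR's quasi-likelihood F test, fitted over all genes with at least 10 counts in total and called at a Benjamini-Hochberg adjusted p under 0.05, and SE stands for standard error.

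All 9 markers were tested in every comparison. Because they were chosen with earlier results of these data known, counts of them beside all genes are descriptive only. In KD against scramble control without LPS, 3 of them were called higher, where 12.1% of the 16217 genes tested were, and 4 were called lower, where 15.1% of all genes were. At 2-fold or more, 2 markers were higher and 3 lower, beside 4.28% and 3.49% of all genes. The 3 KD libraries lay wholly above the 3 scramble libraries for 3 markers and wholly below for 5, beside 42.5% of all genes whose groups did not overlap. With 3 libraries against 3, an exact permutation test cannot give a p below 0.1. The log2 fold change that ranked in the middle of the 9 was that of PDGFRB, -0.90, and the median over all genes was 0.02.

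In KD with LPS against scramble control with LPS, 3 markers were again called higher and 4 lower, beside 12.7% and 14.2% of 15981 genes. At 2-fold or more, 2 were higher and 3 lower, beside 4.58% and 3.9% of all genes. The libraries did not overlap for 7 of the 9, beside 40.6% of all genes. LPS itself moved fewer of the markers. In scramble control 1 was called higher and 1 lower with LPS, beside 5.9% and 8.38% of 15920 genes, and in KD 2 were called higher and 2 lower, beside 5.32% and 6.03% of 16169 genes. No marker passed the test of the interaction of KD with LPS over all 12 libraries, which called 1.28% of 17173 genes. At an unadjusted p under 0.05, 1 of the 9 did so (PDGFRA), and DESeq2 also called 0 of them after adjustment.

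**Figure D1:**
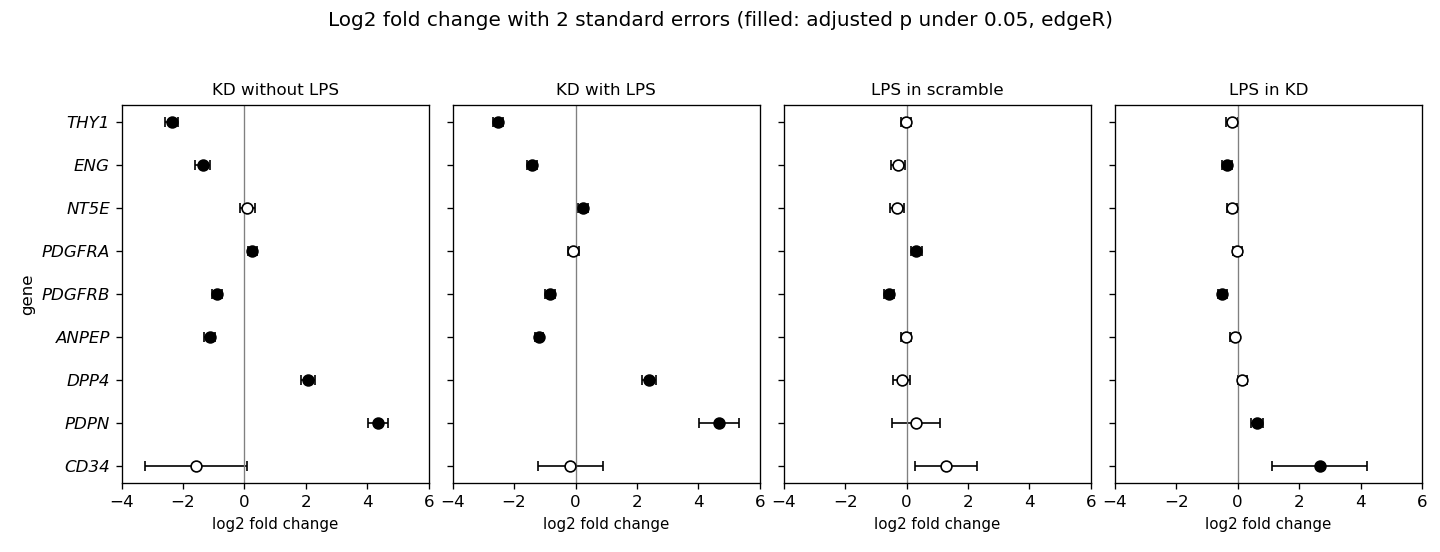
Log2 fold change of each marker (x axis, log2 units) in 4 comparisons (panels), with bars of 2 standard errors and filled points for genes called by edgeR. PDPN and DPP4 lie far to the right and THY1, ENG, ANPEP and PDGFRB to the left in both KD panels, and CD34 has the widest bars.

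Counts on named genes totalled 28.4 to 53.8 M (units of 1e6) per library, and libraries of a group correlated at 0.971 to 0.986 in log2 CPM (counts per 1e6 after TMM scaling). The 7 LPS response genes listed as a check of the labels (CXCL8, IL6, CCL2, NFKBIA, ICAM1, TNFAIP3 and SOD2) were all called higher with LPS in both backgrounds. Of 18 adipocyte markers 17 were tested, and in KD without LPS 13 were called lower and 0 higher (14 and 0 with LPS). Over all genes, 15.1% were lower and 12.1% higher in KD without LPS. Their summed level ranged from 5359 to 6815 CPM in scramble control, 5767 to 6999 CPM with LPS, 1229 to 2739 CPM in KD and 906 to 1727 CPM in KD with LPS. ADIPOQ, FABP4 and PLIN1 were well expressed, whereas LPL had a mean of 14.6 counts per library. The 9 pericyte and smooth muscle markers summed to 917 to 1078 CPM in scramble control, 481 to 530 CPM with LPS, 328 to 383 CPM in KD and 200 to 252 CPM in KD with LPS. Of these 9, 6 were called lower in KD without LPS, beside 15.1% of all genes. The 11 leukocyte markers summed to at most 69.7 CPM in any library, nearly all of it CD68, and PTPRC, which encodes CD45, averaged at most 0.217 CPM in any group. The 9 endothelial markers summed to 24.1 to 27.5 CPM in the scramble libraries and 12.2 to 12.6 CPM in those of KD, and the 5 epithelial markers to at most 1.24 CPM. The part that these other cell type markers play in the differences of the 9 genes was not tested, and in bulk RNA fewer cells of a type and less RNA per cell cannot be told apart.

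**Figure D2:**
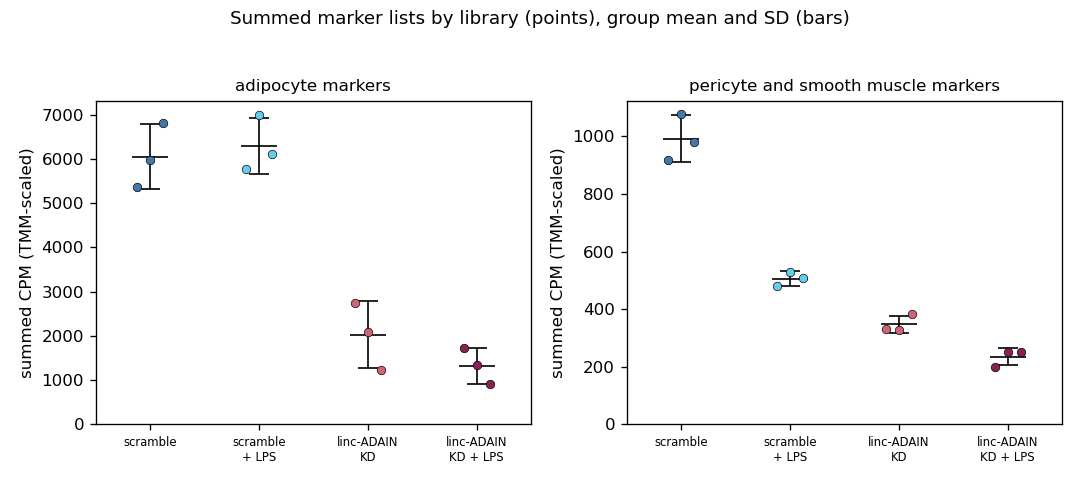
Summed CPM of the 18 adipocyte markers and of the 9 pericyte and smooth muscle markers (y axes, starting at 0) in each library (points), with the mean and SD of 3 libraries. Both sums were lower in every KD library than in every scramble library, and the pericyte and smooth muscle sum was also lower with LPS within each shRNA.

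The 9 genes lie on 8 chromosomes of GRCh38 and are protein-coding in GENCODE release 44. PDPN lies on the plus strand at chr1:13583465-13617957 and CD34 on the minus strand of the same chromosome at chr1:207880972-207911402. DPP4 lies on the minus strand at chr2:161992245-162074394, PDGFRA on the plus strand at chr4:54229280-54298245 and PDGFRB on the minus strand at chr5:150113839-150155872. NT5E lies on the plus strand at chr6:85449584-85495791, and ENG, THY1 and ANPEP on the minus strand at chr9:127815013-127854658, chr11:119415476-119424985 and chr15:89784895-89815401. Exons of THY1 share 632 bases with those of the antisense gene THY1-AS1 and 232 with those of USP2-AS1, exons of ENG share 313 bases with those of an antisense lncRNA with no symbol, and exons of DPP4 share 174 bases with those of the antisense gene DPP4-DT. The study made its libraries with a stranded kit. Whether the counting used strand is not given in the sources used here, so reads of these pairs may not have been told apart. Exons of PDGFRA share 1533 bases with a read-through gene on the same strand, and counts there may have been split between the annotated genes. None of these overlapping genes has a row under its name in the deposited table.

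Promoter sequence is shown for the pair of markers that rose most in KD, PDPN and DPP4. It is also shown for the pair of PDGF receptors, which differed in direction in KD without LPS. Symbols of 8 of the 9 markers matched the RefSeq promoter table, and the 250 bases before each gene's GENCODE start were read from GRCh38. Capitals mark matches of the TATA box (TATAAA), the CCAAT box, the GC box (GGGCGG), the CACCC box and the AP-1 site (TGACTCA), searched on both strands, so that CCGCCC is a GC box on the other strand. The sequences are written 5′ to 3′ on the strand of the gene, at chr1:13583215-13583464 (plus) for PDPN, chr2:162074395-162074644 (minus) for DPP4, chr4:54229030-54229279 (plus) for PDGFRA and chr5:150155873-150156122 (minus) for PDGFRB.
PDPN: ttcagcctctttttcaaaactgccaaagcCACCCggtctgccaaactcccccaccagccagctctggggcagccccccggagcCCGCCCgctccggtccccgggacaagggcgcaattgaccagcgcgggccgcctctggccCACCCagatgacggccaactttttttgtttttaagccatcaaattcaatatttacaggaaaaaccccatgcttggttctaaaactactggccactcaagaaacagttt
DPP4: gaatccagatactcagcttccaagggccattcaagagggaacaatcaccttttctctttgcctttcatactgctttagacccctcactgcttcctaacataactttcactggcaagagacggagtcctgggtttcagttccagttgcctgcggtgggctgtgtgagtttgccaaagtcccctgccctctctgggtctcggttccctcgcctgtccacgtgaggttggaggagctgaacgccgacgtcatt
PDGFRA: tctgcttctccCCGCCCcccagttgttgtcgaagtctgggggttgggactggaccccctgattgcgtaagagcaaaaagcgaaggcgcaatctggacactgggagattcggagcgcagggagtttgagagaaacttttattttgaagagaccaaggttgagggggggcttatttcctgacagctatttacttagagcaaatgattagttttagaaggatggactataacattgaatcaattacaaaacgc
PDGFRB: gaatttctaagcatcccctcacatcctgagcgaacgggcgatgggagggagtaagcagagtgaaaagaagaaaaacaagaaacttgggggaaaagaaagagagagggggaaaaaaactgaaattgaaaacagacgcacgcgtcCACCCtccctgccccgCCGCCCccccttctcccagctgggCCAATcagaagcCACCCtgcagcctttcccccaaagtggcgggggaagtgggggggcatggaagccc
PDPN held 2 CACCC boxes, starting 221 and 108 bases before the gene start, and 1 GC box at 167 bases. PDGFRB held 2 CACCC boxes, 1 GC box and 1 CCAAT box, PDGFRA held 1 GC box, and DPP4 held none of the 5 motifs. No match overlapped another in these sequences. Over 20018 protein-coding promoters of the same length, the TATA box was found in 10%, the CCAAT box in 33.3%, the GC box in 49%, the CACCC box in 57% and the AP-1 site in 3.36%, and among the 8 markers in 0, 2, 4, 3 and 0. The G and C content was 55.6% for PDPN, 53.2% for DPP4, 47.2% for PDGFRA and 56.8% for PDGFRB, and the median over all promoters was 59.6%.

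Among the antigens that define stromal cells, THY1 fell most. THY1 encodes a GPI-anchored glycoprotein that binds integrins and lies upstream of Src-family kinases. It was at 730, 802 and 760 CPM in the scramble libraries and at 150, 124 and 169 CPM in the KD libraries, so that the groups were far apart. The log2 fold change of THY1 was -2.37 (SE 0.11, adjusted p = 8.2e-08, edgeR). With LPS it was at 667, 759 and 821 CPM in the scramble libraries and 132, 127 and 131 CPM in those of KD, a log2 fold change of -2.53 (SE 0.086, adjusted p = 3.8e-10, edgeR). LPS did not separate the libraries within either shRNA, with log2 fold changes of THY1 of -0.02 in scramble control and -0.18 in KD (adjusted p = 0.94 and 0.30, edgeR). Without KD replicate 2 the latter value was -0.30 with an adjusted p of 0.036.

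ENG encodes endoglin, a co-receptor that binds TGF-β family ligands together with signalling receptors such as ACVRL1. Its level was 342, 272 and 240 CPM in the scramble libraries and 113, 101 and 118 CPM in the KD libraries. The lowest scramble library was thus above 2 times the highest KD library, and the log2 fold change of ENG was -1.36 (SE 0.12, adjusted p = 6.0e-06, edgeR). With LPS, ENG was at 255, 226 and 219 CPM in the scramble libraries and at 85.9, 88.1 and 87.8 CPM in those of KD, a log2 fold change of -1.42 (SE 0.082, adjusted p = 2.7e-08, edgeR). ENG was also lower with LPS in KD, by a log2 fold change of -0.34 (adjusted p = 0.013, edgeR), and every KD library with LPS was below every KD library without it. Without replicate 1 of KD with LPS that adjusted p was 0.052 at a log2 fold change of -0.33. In scramble control the log2 fold change of ENG with LPS was -0.27 and its groups overlapped (adjusted p = 0.16, edgeR). With the replicate numbers as a block in the fit, ENG was called there (adjusted p = 0.016, edgeR).

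NT5E encodes the ecto-5′-nucleotidase that turns extracellular AMP into adenosine, and it changed least of the 3 antigens. It was at 160, 135 and 110 CPM in the scramble libraries and 138, 151 and 143 CPM in those of KD, and the libraries overlapped. The log2 fold change of NT5E was 0.10 with an interval of 2 standard errors from -0.13 to 0.33 (adjusted p = 0.58, edgeR), and it was -0.038 without scramble replicate 3. With LPS, NT5E was at 108, 105 and 110 CPM in the scramble libraries and 121, 124 and 140 CPM in those of KD, and the KD libraries were all higher. That log2 fold change of 0.25 (SE 0.082, adjusted p = 0.036, edgeR) kept its call only without replicate 1 of KD with LPS among the 6 libraries left out in turn, with values from 0.18 to 0.29 and adjusted p up to 0.17. With LPS in scramble control NT5E had a log2 fold change of -0.32 (adjusted p = 0.090, edgeR). It was called without scramble replicate 3, its lowest scramble library (-0.44, adjusted p = 0.012), with DESeq2 (adjusted p = 0.039), with no filter on low counts (adjusted p = 0.036) and with all 12 libraries in the fit (adjusted p = 0.043), at values from -0.33 to -0.32 in the last 3.

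In KD without LPS the receptors of platelet-derived growth factor (PDGF) went in different directions. PDGFRB, the receptor for PDGF-B and PDGF-D, was at 922, 999 and 1010 CPM in the scramble libraries and 543, 483 and 544 CPM in those of KD. The log2 fold change of PDGFRB was -0.90 (SE 0.077, adjusted p = 5.0e-06, edgeR). LPS lowered PDGFRB further. It was at 592, 689 and 666 CPM in scramble control with LPS, a log2 fold change of -0.58 (adjusted p = 5.8e-04, edgeR), and at 380, 388 and 339 CPM in KD with LPS, a log2 fold change of -0.50 (adjusted p = 4.3e-04, edgeR). Among the 9 markers PDGFRB was the only gene called in all 4 comparisons of groups, and its difference between KD and scramble control with LPS was -0.82 on the log2 scale (adjusted p = 5.4e-06, edgeR). Each of its groups was separate from the others, from scramble control as the highest to KD with LPS as the lowest. The summed pericyte and smooth muscle markers had the same order of groups, but most of that sum was TAGLN, at a mean of 766 CPM in scramble control, 317 with LPS, 243 in KD and 137 in KD with LPS. CNN1 of the list kept the order by its group means, with overlapping libraries in scramble control with LPS and KD. Other genes did not keep it, among them RGS5 at means of 2.03, 3.15, 2.79 and 4.11 CPM in these groups. NOTCH3, at 40.2, 43.6, 5.10 and 3.52 CPM, did not keep it either. The part of these markers in the fall of PDGFRB was not tested.

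PDGFRA, the receptor that also binds PDGF-A and PDGF-C, stayed high in every group. It was at 803, 716 and 769 CPM in the scramble libraries and 879, 952 and 898 CPM in those of KD, with every KD library higher. The log2 fold change of PDGFRA was 0.26 (SE 0.073, adjusted p = 0.020, edgeR), and the call was lost without scramble replicate 2 (0.21, adjusted p = 0.11) and without KD replicate 2 (0.22, adjusted p = 0.066). LPS raised PDGFRA in scramble control to 1000, 839 and 978 CPM, a log2 fold change of 0.31 (SE 0.087, adjusted p = 0.034, edgeR). That call was lost without scramble replicate 2 or 3 (0.27 and 0.32, adjusted p = 0.16 and 0.065) and without replicate 1 or 3 of scramble control with LPS (0.26 and 0.28, adjusted p = 0.095 and 0.13). In KD with LPS it was at 918, 811 and 963 CPM, overlapping both KD without LPS and scramble control with LPS. Against scramble control with LPS its log2 fold change was -0.07 (adjusted p = 0.64, edgeR). The difference of the KD effect on PDGFRA with and without LPS was -0.32 on the log2 scale, with an adjusted p of 0.26 in edgeR's interaction test. Per kb of transcript, the ratio of the PDGFRA level to the PDGFRB level ranged from 0.641 to 0.778 in the scramble libraries, 1.09 to 1.51 with LPS, 1.45 to 1.76 in KD and 1.87 to 2.54 in KD with LPS. PDGFRB was thus the higher of the pair in scramble control without LPS, and PDGFRA in the other groups.

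**Figure D3:**
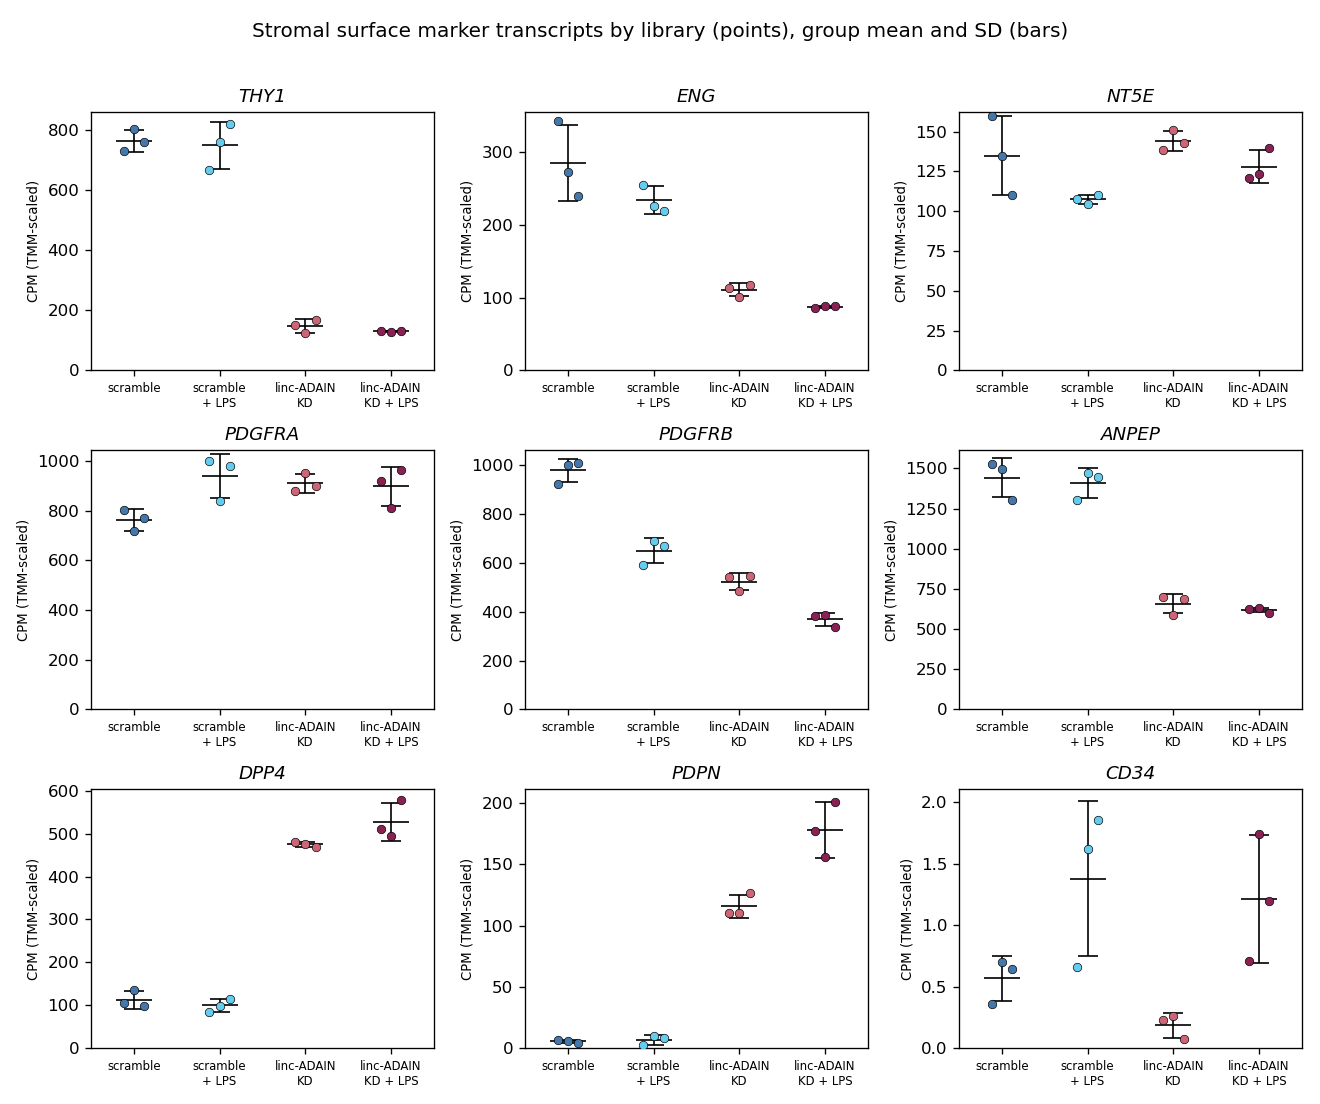
CPM of the 9 markers (y axes, starting at 0) in each library (points) of the 4 groups, with the mean and SD of 3 libraries. PDPN rose from at most 10.01 CPM in any scramble library to at least 110 CPM in any KD library, THY1 fell from at least 667 to at most 169 CPM, and CD34 stayed below 2 CPM in every library.

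The 2 peptidases among the markers moved in opposite directions. ANPEP encodes aminopeptidase N, which removes amino acids from the N terminus of peptides. ANPEP was at 1529, 1495 and 1307 CPM in the scramble libraries and 699, 589 and 689 CPM in those of KD, a log2 fold change of -1.13 (SE 0.089, adjusted p = 2.5e-06, edgeR). With LPS it was at 1303, 1472 and 1449 CPM in the scramble libraries and 622, 630 and 603 CPM in those of KD, a log2 fold change of -1.19 (SE 0.070, adjusted p = 3.3e-08, edgeR). LPS left it within the spread of the libraries in both backgrounds, with log2 fold changes of ANPEP of -0.02 and -0.09 (adjusted p = 0.91 and 0.52, edgeR). DPP4 encodes dipeptidyl peptidase 4 (CD26), which cuts dipeptides from incretins and chemokines and marks an interstitial progenitor population in adipose tissue. DPP4 was at 105, 136 and 97.9 CPM in the scramble libraries and 480, 475 and 469 CPM in those of KD. The lowest KD library was above 3 times the highest scramble library, and the log2 fold change of DPP4 was 2.07 (SE 0.11, adjusted p = 1.5e-07, edgeR). With LPS it was at 85.3, 99.7 and 115 CPM in the scramble libraries and 510, 494 and 578 CPM in those of KD, a 5.27-fold difference (log2 2.40, SE 0.11, adjusted p = 3.5e-09, edgeR). LPS had no called effect on DPP4 in scramble control or in KD (log2 fold changes -0.16 and 0.15, adjusted p = 0.49 and 0.24, edgeR).

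PDPN encodes podoplanin, a mucin-type glycoprotein of fibroblastic and lymphatic cells that binds ezrin, radixin and moesin inside the cell and the platelet receptor CLEC1B outside it. PDPN was low in scramble control, at 6.66, 6.37 and 4.04 CPM, and was at 110, 110 and 126 CPM in KD. The log2 fold change of PDPN was 4.34 (SE 0.16, adjusted p = 2.0e-08, edgeR). With LPS it was at 2.51, 10.01 and 8.65 CPM in the scramble libraries and 177, 156 and 201 CPM in those of KD, a 25.4-fold difference (log2 4.67, SE 0.33, adjusted p = 1.7e-07, edgeR). Within KD, the libraries with LPS were all above those without, by a log2 fold change of 0.62 (SE 0.098, adjusted p = 6.1e-04, edgeR), but the call was lost with all 12 libraries in the fit (0.62, adjusted p = 0.14). In scramble control the log2 fold change of PDPN with LPS was 0.32 with overlapping libraries (adjusted p = 0.67, edgeR), and the interval of its interaction with KD ran from -0.46 to 1.12.

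CD34, the sialomucin of haematopoietic, endothelial and freshly isolated adipose stromal cells, was close to the detection limit. It had 19, 37 and 30 counts in the scramble libraries and 8, 14 and 3 in the KD libraries. All 3 KD libraries were lower, but the log2 fold change of -1.57 had a standard error of 0.83 (adjusted p = 0.19, edgeR). With LPS, CD34 had 26, 49 and 79 counts in scramble control and 25, 81 and 34 counts in KD, and no difference between the shRNAs was detectable at this depth (log2 fold change -0.18, interval -1.23 to 0.88, adjusted p = 0.86, edgeR). In KD it was higher with LPS by a log2 fold change of 2.67 (SE 0.78, adjusted p = 0.039, edgeR). That call was lost without KD replicate 1, 2 or 3 and without replicate 2 or 3 of KD with LPS, with log2 fold changes from 2.29 to 2.98 and adjusted p up to 0.23. In scramble control the log2 fold change of CD34 with LPS was 1.28 (adjusted p = 0.13, edgeR), and it was 1.62 with an adjusted p of 0.047 without replicate 1 of scramble control with LPS. The comparisons of KD and of LPS share their libraries, so the values of each marker in them are set side by side and are not independent.

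Levels of different genes were compared per kb of the canonical transcript. In scramble control ANPEP was highest at 394 ± 32.7 CPM per kb (SD, n = 3), followed by PDGFRB at 171 ± 8.34 and THY1 at 170 ± 8.13, which did not differ beyond their spread. PDGFRA at 120 ± 6.83 and ENG at 96.6 ± 17.8 CPM per kb also overlapped, as did NT5E at 37.9 ± 6.97 and DPP4 at 31.6 ± 5.77. PDPN at 2.08 ± 0.525 and CD34 at 0.0715 ± 0.0230 CPM per kb were separate from all others. In KD, ANPEP at 180 ± 16.6 remained highest, and PDGFRA at 143 ± 5.96, DPP4 at 133 ± 1.43 and PDGFRB at 91.7 ± 6.13 CPM per kb followed with no overlap between neighbours. PDPN at 42.2 ± 3.44, NT5E at 40.5 ± 1.81, ENG at 37.6 ± 2.88 and THY1 at 32.8 ± 5.02 CPM per kb were next, and neighbours among these 4 overlapped. CD34 remained lowest at 0.0236 ± 0.0125 CPM per kb. The places depend on the transcript taken as the length. Per kb of the canonical transcript THY1 moved from the third to the eighth place by its mean and DPP4 from the seventh to the third. Per kb of the shortest coding transcript, of 570 bases for THY1, THY1 moved only from the second to the third place and DPP4 stayed at the seventh, with THY1 at 259 and DPP4 at 142 CPM per kb in KD. With those lengths, of 568 bases for PDGFRB and 3662 for ANPEP, PDGFRB and not ANPEP was highest in scramble control. Their canonical lengths are 5700 and 3662 bases, so this choice shortened the genes unevenly. Which transcripts were present was not tested.

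**Figure D4:**
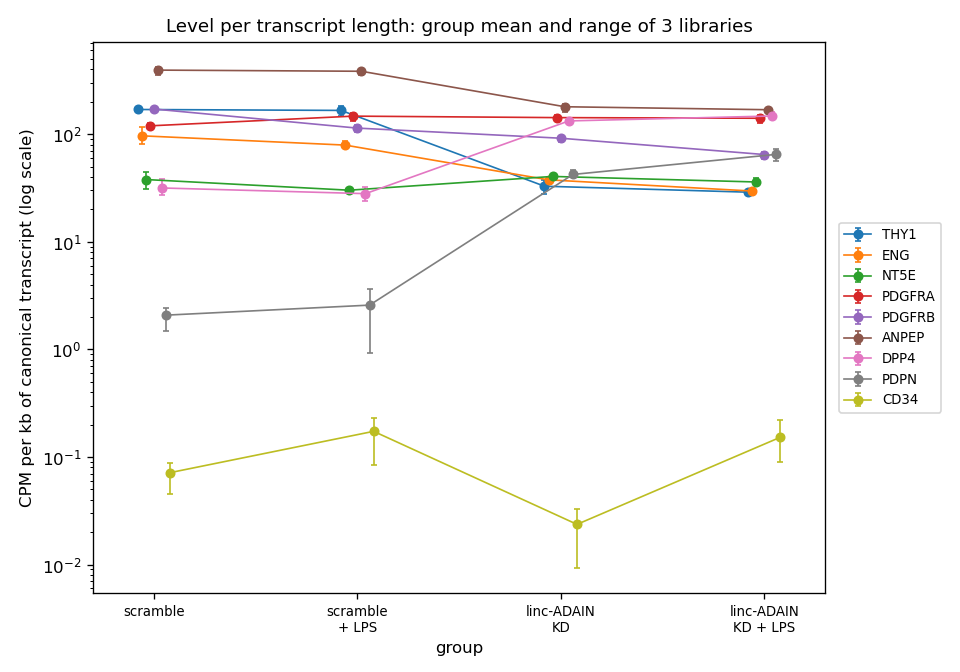
CPM per kb of the canonical transcript (y axis, log scale) for the 9 markers in the 4 groups, as the mean with bars for the lowest and highest of 3 libraries. The lines of THY1 and DPP4 cross between scramble control and KD, which they do not do per kb of the shortest coding transcript, and CD34 lies below 1 CPM per kb in every group.

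The genes whose pattern over the 12 libraries was most like each of the 5 markers that passed 2-fold were found by the root mean square difference in centred log2 CPM, among 11810 genes. For ANPEP these were FLII at 0.085, LLGL1 at 0.095 and NAV2 at 0.10, and FLII went from a mean of 372 CPM in scramble control to 165 in KD. For THY1 they were SLIT3 at 0.14, ACSL5 at 0.18 and MELTF at 0.19, and SLIT3 went from a mean of 471 to 89.7 CPM. For DPP4 they were GK at 0.18, GAS6 at 0.20 and LUM at 0.22, and LUM, the proteoglycan lumican, went from 126 to 509 CPM. For ENG they were FAM47E-STBD1 at 0.14, CXXC5 at 0.15 and CCDC43 at 0.16. The genes most like PDPN were less close, KCND3 at 0.37, MAOB at 0.45 and NTN1 at 0.46, all of them near 0 CPM in scramble control. Among the 8 markers other than CD34, which was under the mean of 50 counts required, ENG and ANPEP were the closest pair, at 0.20, and THY1 and PDPN the most unlike, at 3.57. All 12 libraries are shared by these values, which are given without a test.

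Of 20 other stromal surface antigens, 3 were called higher and 9 lower in KD without LPS, beside 12.1% and 15.1% of all genes. Their median log2 fold change was -0.23 beside 0.02 over all genes. The falls were led by CSPG4, the NG2 proteoglycan of pericytes, at a log2 fold change of -2.23 (adjusted p = 8.3e-07), by MCAM (CD146) at -2.06 (adjusted p = 3.0e-05) and by CD248 (endosialin) at -1.85 (adjusted p = 7.8e-07, edgeR). VCAM1, an adhesion receptor for leukocytes, rose by 2.15 (adjusted p = 0.0062, edgeR) from 19, 36 and 34 counts in scramble control, and by 1.53 without KD replicate 1 (adjusted p = 0.043). With LPS, 4 were called higher and 8 lower, beside 12.7% and 14.2% of all genes. There CSPG4, MCAM, CD248 and VCAM1 had log2 fold changes of -1.36, -2.58, -2.19 and 1.97, each again called. LPS raised VCAM1 by 2.92 in scramble control and 2.74 in KD and lowered ITGA5, an integrin subunit that binds fibronectin, by -1.53 and -1.56, with all 4 of these called. Without KD replicate 1 the rise of VCAM1 with LPS in KD was 3.33. CSPG4 was lower with LPS in scramble control (-1.31, adjusted p = 0.0010, edgeR) but not called in KD (-0.46, adjusted p = 0.14), and the difference of 0.87 between these was not called by the interaction test (adjusted p = 0.15). Of 20 antigens, 2 were called higher and 6 lower with LPS in scramble control, beside 5.9% and 8.38% of all genes. In KD 4 were called higher and 3 lower with LPS, beside 5.32% and 6.03% of all genes.

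The partners of each marker were counted in the same way, beside 12.1% of all genes higher and 15.1% lower in KD without LPS. Of 4 PDGF ligands 3 could be tested, and only PDGFD was called, higher in KD by a log2 fold change of 0.86 without LPS and 1.13 with LPS (adjusted p = 1.9e-04 and 2.2e-06, edgeR). Of 14 ligands and partner receptors of endoglin 12 were tested in KD without LPS, and 1 was higher and 5 were lower. BMP2, a ligand, rose by 1.53, TGFB1 fell by 0.64 and the receptors TGFBR3 and TGFBR2 fell by 0.98 and 0.33, TGFBR2 with an adjusted p of 0.0073 that was 0.056 when libraries were scaled by their size only. ACVRL1, which signals with endoglin, had a log2 fold change of -0.37 without LPS (adjusted p = 0.17, and 0.015 at -0.57 without scramble replicate 1) and -0.98 with LPS (adjusted p = 0.0017, edgeR). ACVRL1 was also lower with LPS in KD, at -0.90 (adjusted p = 4.9e-04, edgeR). Of 12 adenosine pathway genes 9 were tested, and 2 were higher and 2 lower after KD. ENTPD1, which makes the AMP used by NT5E, had 5, 13 and 8 counts in scramble control and 37, 77 and 59 in KD (log2 fold change 2.93, adjusted p = 0.0033, edgeR). ADA, which degrades adenosine, was higher by 0.94, the receptor ADORA2B fell by 0.53 without LPS and 1.08 with LPS, and the receptor ADORA2A rose with LPS by 3.27 in scramble control, where it had 24, 45 and 8 counts without LPS, and by 3.53 in KD. Without scramble replicate 2 the first value for ADORA2A was 3.91, and without KD replicate 2 the second was 2.93, both still called.

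Of 11 Thy-1 partners 10 were tested in KD without LPS, with 2 higher and 4 lower, beside 12.1% and 15.1% of all genes. CAV1 (caveolin 1) fell by 1.32 and the integrin subunit ITGAV by 0.82 on the log2 scale, and PAG1, an adaptor of lipid rafts, rose by 1.20. Of 9 podoplanin and CD34 partners or relatives 7 were tested, with 0 higher and 3 lower. PODXL, the CD34 relative podocalyxin, went from 913, 577 and 681 counts in scramble control to 39, 71 and 38 in KD, a log2 fold change of -3.65 (adjusted p = 4.1e-07, edgeR). MSN (moesin) and RDX (radixin) had log2 fold changes of -0.23 and -0.29 (adjusted p = 0.041 and 0.033, edgeR), calls that were lost under library-size scaling (adjusted p = 0.27 and 0.16). The call of MSN was also lost without scramble replicate 1 or 2 or KD replicate 1 or 2 (adjusted p up to 0.14), and that of RDX without scramble replicate 2 or 3 or KD replicate 1 or 3 (adjusted p up to 0.11). Of 13 other peptidases 2 were called higher and 4 lower without LPS, and 3 higher and 6 lower with LPS. Of the 4 lower without LPS, 0 reached 2-fold, ACE being at -0.86 (adjusted p = 0.029, edgeR). FAP, fibroblast activation protein, rose by 1.05 without LPS and 1.37 with LPS, and MME (neprilysin, CD10) by 0.57 and 0.51, both under 2-fold. ENPEP, aminopeptidase A, had a log2 fold change of -2.49 in KD with LPS.

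Lists for both adipose progenitor stages had more genes lower than higher in KD. Over all genes, 15.1% were lower and 12.1% higher without LPS. Of 10 interstitial progenitor genes, the stage that DPP4 marks, 7 were tested without LPS and 4 were lower and 0 higher, with a median log2 fold change of -0.54. CLEC3B fell by 2.77 and MFAP5 by 1.47. WNT2 had 215, 339 and 220 counts in scramble control and 0 in every KD library, which is at least 70.6-fold lower when 3 counts per KD library are taken as the floor. Without LPS, DPP4 thus rose while these genes of its list fell or did not pass the test. With LPS 8 were tested, with 3 lower and 1 higher, CD55 at a log2 fold change of 0.60 (adjusted p = 3.9e-04, edgeR). Of 10 committed preadipocyte genes 9 were tested, with 2 higher and 6 lower and a median of -0.87. This list shares PPARG, FABP4 and LPL with the adipocyte markers and ICAM1 with the LPS response genes, so it is not independent of them. Without LPS, FABP4, COL4A1 and COL4A2 fell by 1.65, 1.54 and 1.45, and ICAM1 rose by 1.61 (all 4 called by edgeR).

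**Figure D5:**
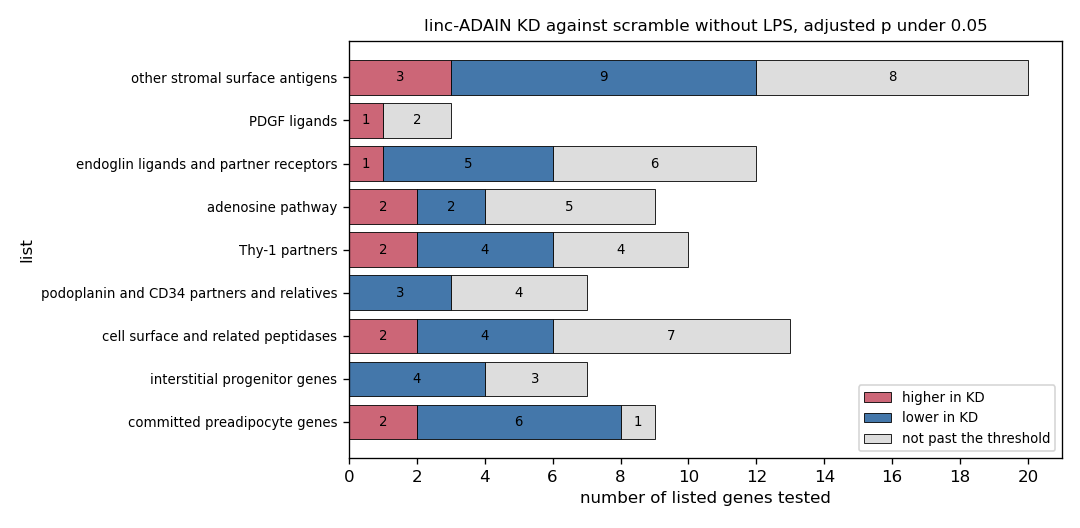
Number of tested genes (x axis) in each of 9 lists related to the markers that were higher, lower or not past an adjusted p of 0.05 in linc-ADAIN KD against scramble control without LPS. Lower calls outnumber higher calls in 7 of the 9 lists, and the PDGF ligands have no lower call. Over all 16217 genes tested lower calls were also more frequent, at 15.1% beside 12.1% higher.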

How the data were processed

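The authors converted the reads with bcl2fastq 2.19 and assigned them with kallisto 0.44.0 to transcripts of GRCh38 (tools and build per the labels), and deposited estimated counts per gene name, without correction for depth or length. The release of the annotation and the use of strand in the counting are not given in the sources used here. A row with no gene name, 0.235% to 0.306% of a library, was left out.

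The deposited estimated counts were rounded, although the values were already whole. In R 4.3.3, TMM scaling and the quasi-likelihood F test of edgeR 4.0.16 were applied to each comparison's 6 libraries, or to all 12 for the interaction. Genes needed a summed count of 10 or more, and p-values were adjusted over all genes tested (Benjamini-Hochberg). Standard errors are the log2 fold change divided by the square root of F, and intervals are 2 standard errors on each side. Depth was 28.4 to 53.8 M counts (units of 1e6), and counting error and spread are both in the fit. The study used DESeq2. Alternatives were DESeq2 1.42.0, its size factors, library-size scaling, no filter, filterByExpr, all 12 libraries in 1 fit, a replicate block, and leaving out single libraries. Replicate numbers were not treated as pairs in the main test.

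The 9 members and the lists of related genes were chosen with earlier results of these data known. Named from the lists were up to 4 genes a list with at least 50 counts on average that passed an adjusted p of 0.05 and 2-fold, and direct partners of a marker. MME, ACE and CD55 were named in addition. Likeness used log2 CPM with a prior count of 2. Positions and lengths are from GENCODE release 44 (GRCh38). The steps were tested on simulated data.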

Additional observations from a re-analysis of the deposited data

Results flagged for a closer look

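The 110 genes looked at had at least 50 counts on average and came from the markers, the lists related to them and the cell type markers. CD34, with a mean of 33.8 counts, was not among the 110. For 5 genes the difference that linc-ADAIN KD made changed with LPS, by edgeR's interaction test over all 12 libraries, and these 5 held no marker. The KD effect on SDC4, a cell surface syndecan, was more positive with LPS by 1.24 on the log2 scale (adjusted p = 4.5e-05), and this call, like that of CD9, was kept with each library left out. The values for CD9 and CD55, surface antigens of stromal cells, were 0.76 (adjusted p = 0.0055) and 0.73 (adjusted p = 0.018). The call of CD55 was lost without scramble replicate 1 or 2 or without replicate 1 or 3 of KD with LPS, with adjusted p up to 0.062. ERAP2, a peptidase of the endoplasmic reticulum, had a difference of -1.72 (adjusted p = 0.031), lost without scramble replicate 1 or 2, replicate 1 or 3 of scramble control with LPS, KD replicate 1 or replicate 2 or 3 of KD with LPS (adjusted p up to 0.088). WNT2 had a difference of 6.01 (adjusted p = 0.023), but it was at 0 counts in every KD library without LPS and at 8, 11 and 1 counts with LPS, so that this value depends on the prior count. The call of WNT2 was lost without scramble replicate 2 or without replicate 1 or 2 of KD or of KD with LPS (adjusted p up to 0.077).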

How the results depend on the processing

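Of 45 values of the markers (9 genes in 5 comparisons), 25 kept their direction and their side of the threshold under all alternatives run, 6 lost a call under at least 1, 4 gained 1 and 10, none of them called, changed sign. The calls of THY1, ENG, ANPEP, PDGFRB, DPP4 and PDPN between KD and scramble control were among the 25, and the number of markers called stayed between 6 and 7 in both KD comparisons. For LPS in scramble control the number called was 1 with library-size scaling, 3 with DESeq2, with no filter or with all 12 libraries, 4 with the replicate block, NT5E (adjusted p = 0.020) among them, and 1 to 2 with each library left out, in place of 2. The cause was not tested. Deviations of libraries with the same replicate number correlated at -0.0241 to 0.0624, and those with different numbers at -0.0693 to 0.0344. With the replicate block, genes called went from 2274 to 3260 for LPS in scramble control and from 4411 to 3857 for KD without LPS. With 3 libraries a group, these values cannot show whether the numbers pair the libraries. Library-size scaling moved the median log2 fold change over all genes from 0.02 to 0.13 in KD without LPS and turned PDGFRA in KD with LPS to 0.017. With each library left out in turn, values that changed sign ranged from -0.038 to 0.24 for NT5E in KD without LPS, -0.54 to 0.10 for CD34 in KD with LPS, -0.087 to 0.061 for THY1, -0.089 to 0.029 for ANPEP and -0.013 to 0.72 for PDPN with LPS in scramble control, and -0.076 to 0.052 for PDGFRA with LPS in KD. In the interaction they ranged from -0.21 to 0.052 for ENG, -0.14 to 0.011 for ANPEP and -0.082 to 0.64 for PDPN. Of 79 values of other named genes, 71 kept direction and call throughout. Low counts limit the precision for CD34, ENTPD1 and WNT2.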

Other observations

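The nearest tested protein-coding genes on each side of the 9 markers were looked at in KD without LPS. Of these 18 neighbours 5 were called higher, 4 lower and 9 not, by edgeR at an adjusted p under 0.05, beside 12.1% higher and 15.1% lower of the 16217 genes tested. FAP, which lies 96.3 kb from DPP4, was higher along with it (log2 fold change 1.05, adjusted p = 0.011). AK1, at 11.8 kb from ENG, was lower (-1.15, adjusted p = 1.0e-04), as was FPGS at 0.686 kb on the other side (-0.49, adjusted p = 0.0027). AP3S2, at 15.2 kb from ANPEP, was higher (0.76, adjusted p = 4.3e-04) while ANPEP was lower. CSF1R, which lies 0.467 kb from PDGFRB, had a log2 fold change of -0.02 (adjusted p = 0.98) at a mean of 28.6 counts per library.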
